A study of Komagataella phaffii GS115 with 12 samples.

Results

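The protein part of the large ribosomal subunit of the cytosol was followed across 12 arrays of the methylotrophic yeast Komagataella phaffii GS115, long known as Pichia pastoris. Its members were taken by name: the ribosomal proteins of the large subunit, from RPL1 to RPL43 with the stalk proteins RPP0, RPP1 and RPP2, which come to 81 identifiers. Of these, 63 had a row among the 2390 rows of the expression table, 48 of the 60 identifiers listed by name and 15 of the 21 added to complete the families. The remaining 18 identifiers are not in the table used here: both rows of RPL15, RPL26, RPL34, RPL35 and RPL41, the single genes RPL29 and RPL30, and 1 row each of RPL8, RPL18, RPL22, RPL27, RPL31 and RPL33. The rule used names and no measured value, but it was set with earlier results of these data known.

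The large subunit joins amino acids and releases the growing chain through its exit tunnel, while the small subunit reads the message. Its proteins are made in near equal numbers and assembled on ribosomal RNA in the nucleolus, and the last of them are added in the cytoplasm. In S. cerevisiae most of them are encoded by a pair of nearly identical paralogs, called A and B, and their genes are switched as a group with growth rate and nutrient supply. The rows carry the systematic gene names of S. cerevisiae, and the standard names and roles used here are those of that yeast, from its general nomenclature and not from the table. How closely the probes of a row match a transcript of K. phaffii is not known, so a row named for a paralog may read another gene, and nearly identical rows cannot be told apart by hybridisation.

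Each of the 4 groups held 3 arrays of separate cultures grown on methanol, and every strain derives from GS115. G12-CBS carries the recombinant methionine adenosyltransferase gene DS56, and the weak promoter G12 is placed before its CYS4 gene to lower cystathionine beta-synthase. It was sampled at 72 h, after L-methionine was fed at 24 h, and at 24 h, without that feed. GS115/DS56 carries DS56 alone and was sampled at 72 h with the same feed. The control carries the empty vector pPIC3.5K in GS115 and was sampled at 72 h with the same feed. The labels class 72 h G12-CBS and DS56 as high producers of S-adenosylmethionine, and 24 h G12-CBS and the control as low producers, although the titles mark G12-CBS as high at both times. They do not say how many clones stand behind a strain.

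The deposited values are log2 intensities from 1-colour arrays for which the submitters' processing notes name RMA, and a level is compared here only within its own row. The median of all values was 6.64, and the array medians ran from 6.59 to 6.66. Bright rows share a few levels across arrays. The top value was 15.76 on all 12 arrays, the next step lay 0.18 lower, and an SD of 0 in a bright row does not measure the spread between cultures. The row of SAM2 (YDR502C), a methionine adenosyltransferase of yeast, averaged 15.76 in 72 h G12-CBS, 15.70 ± 0.10 in 24 h G12-CBS, 15.76 in DS56 and 10.47 ± 0.29 in control cells (SD, n = 3 each). The row of CYS4 is not in the table used here, so its lowering was not checked. No slide or scan is named for the arrays, so an array batch and the groups cannot be told apart. The p-values rest on a spread between arrays that is pooled over the 4 groups of 3 and moderated over rows. The spread was unequal between groups. The median SD over all rows was 0.177 in 72 h G12-CBS, 0.095 in 24 h G12-CBS, 0.112 in DS56 and 0.185 in the control. Less transcript per cell cannot be told apart from fewer cells that make it.

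The 63 rows were unequal in brightness: row means over 12 arrays ran from 6.36 for RPL19B to 15.33 for RPL10. Above a mean of 8 lay 28 of the 63 rows, against 160 of all 2390 rows. This limit was set after the values were seen. The other 35 rows were dim, 23 of them with a mean under 7, and for these rows hybridisation above background is not shown. In several pairs 1 row was bright and the other dim: RPL2A averaged 12.42 in 72 h G12-CBS and RPL43A 14.41 ± 0.08, while RPL2B averaged 6.57 ± 0.03 and RPL43B 7.11 ± 0.38 there (SD, n = 3 each). These levels come from different probes, and their order between rows has no meaning.

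Across the 4 groups, 39 of the 63 rows (61.9%) passed the moderated F test of limma at a Benjamini-Hochberg adjusted p under 0.05 over all 2390 rows, where 31.0% of all rows passed. Brightness moved with this share: 71.4% of the bright large-subunit rows passed against 76.9% of all bright rows, and 54.3% of the dim ones against 27.7% of all dim rows. The rows did not move as 1 block. Among the 39, the means of 24 h G12-CBS and of DS56 both lay above those of 72 h G12-CBS and the control in 15 rows, among them RPL1A, RPL1B, RPL24A, RPL24B, RPL31B, RPL37B and RPP1B. Both lay below in 11 rows, among them RPL9A, RPL9B, RPL11A, RPL11B, RPL20A, RPL20B and RPL40B. The remaining 13 rows had another order, and of all 740 rows past the F test 376 (50.8%) had the first order and 193 (26.1%) the second. Of the 96 calls of a row in a pairwise comparison, 49 held in every alternative fit, 47 were lost in at least 1 and 22 with only the 6 arrays compared, and 0 changed direction. A total of 42 rows passed the test in at least 1 of the 5 pairwise comparisons and 21 in none. Those 21 were RPL2A, RPL2B, RPL4A, RPL6A, RPL12B, RPL13B, RPL14A, RPL16B, RPL17B, RPL18B, RPL23B, RPL25, RPL28, RPL32, RPL38, RPL42A, RPL42B, RPL43A, RPL43B, RPP2A and RPP2B. Among them RPP2B alone passed the F test, at the threshold (limma, adjusted p = 0.0499997). The count of 42 was not made over all rows, so no share stands beside it and nothing is read from it.

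**Figure D1:**
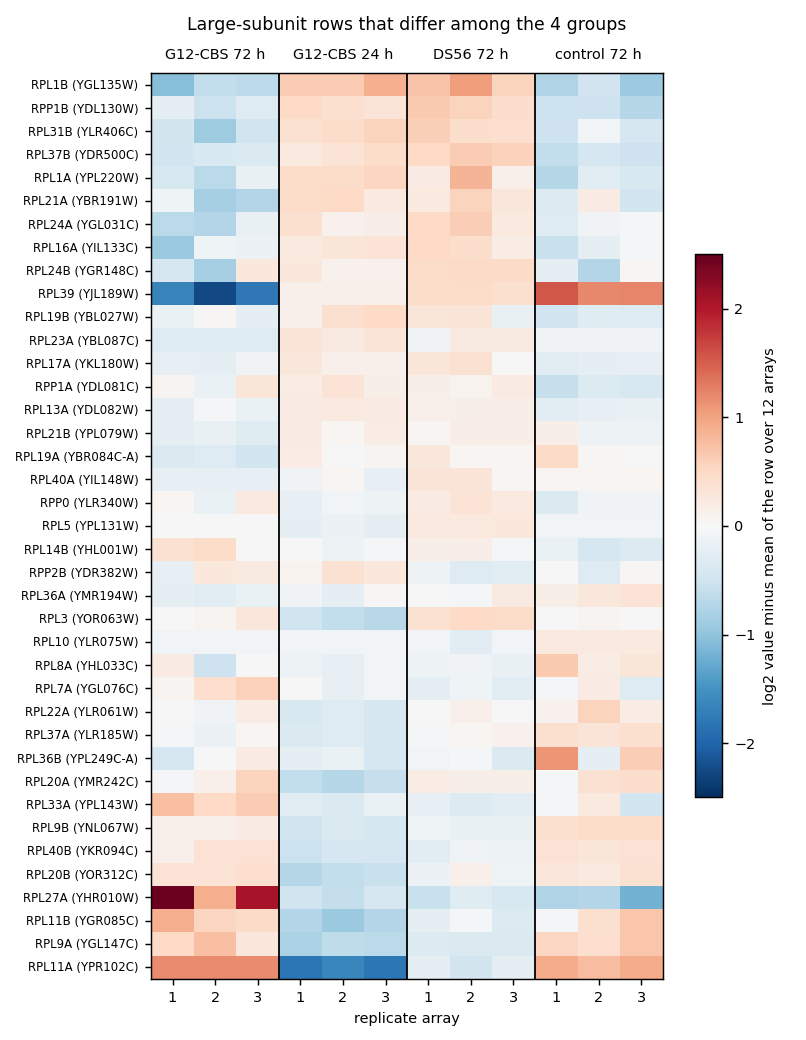
Each line is 1 of the 39 large-subunit rows past the F test and each column 1 array, with 72 h G12-CBS, 24 h G12-CBS, DS56 and control from left to right; colour is the log2 value minus the row's mean over 12 arrays. RPL39 is deep blue and RPL27A deep red in 72 h G12-CBS, and RPL11A is deep blue in 24 h G12-CBS.

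RPL39 lines the end of the exit tunnel, and its row (YJL189W) set the G12-CBS strain at 72 h apart from every other group. Its log2 values were 7.73, 7.15 and 7.60 in 72 h G12-CBS, 9.53 on all 3 arrays of 24 h G12-CBS, 9.87, 9.87 and 9.80 in DS56, and 10.96, 10.60 and 10.63 in the control. No 2 groups overlapped, and the 4 groups stood in that order from low to high. The row fell by 3.24 ± 0.14 (SE) on the log2 scale in 72 h G12-CBS against the control, a 9.42-fold lower signal, with the 72 h G12-CBS level in the dim range (limma, adjusted p = 1.02e-12). It fell by 2.35 ± 0.14 against DS56 (limma, adjusted p = 3.63e-10) and by 2.04 ± 0.14 against the same strain at 24 h (limma, adjusted p = 2.00e-09). DS56 itself was lower than the control, by a difference of -0.88 ± 0.14 (limma, adjusted p = 2.63e-04). 24 h G12-CBS and DS56 differed by -0.31 ± 0.14, which did not pass (limma, adjusted p = 0.81).

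Other proteins around the tunnel had other patterns. RPL31, which sits at the tunnel's mouth, had 1 row, RPL31B (YLR406C). Its values were 6.98, 6.54 and 6.95 in 72 h G12-CBS, 7.81, 7.91 and 8.01 in 24 h G12-CBS, 8.03, 7.88 and 7.85 in DS56, and 6.93, 7.37 and 7.02 in the control. The arrays of 24 h G12-CBS and of DS56 lay above all others in this dim row, and 72 h G12-CBS overlapped the control. DS56 exceeded the control by 0.81 ± 0.14 (limma, adjusted p = 5.53e-04), and 72 h G12-CBS lay below DS56 by a difference of -1.10 ± 0.14 (limma, adjusted p = 1.14e-05). RPL17A (YKL180W), a dim row whose protein reaches the tunnel's narrowest point, likewise had its higher means in DS56 and 24 h G12-CBS. DS56 minus control gave 0.46 ± 0.12 (limma, adjusted p = 0.0152), a call lost without DS56 replicate 1 or 2. RPL4, which meets RPL17 at that point, passed once: RPL4B (YDR012W) was higher by 0.42 ± 0.14 in 72 h G12-CBS than in DS56 (limma, adjusted p = 0.0320), a call lost in 6 of 13 alternative fits, the 6 arrays alone included (limma, adjusted p = 0.0699). RPL25 (YOL127W), the docking site of the signal recognition particle at the exit, averaged 6.41 ± 0.17 in 72 h G12-CBS, 6.66 ± 0.15 at 24 h, 6.61 ± 0.11 in DS56 and 6.40 ± 0.19 in the control (SD, n = 3 each), and passed no test.

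RPL11 and RPL5 bind the smallest RNA of the large subunit and form its central protuberance, and both RPL11 rows were lowest in 24 h G12-CBS. RPL11A (YPR102C) read 13.83 on all 3 arrays of 72 h G12-CBS, 10.85, 11.01 and 10.85 in 24 h G12-CBS, 12.42, 12.19 and 12.42 in DS56, and 13.58, 13.41 and 13.58 in the control. The groups did not overlap, with 24 h G12-CBS lowest. 72 h G12-CBS was 7.58-fold higher than at 24 h, a log2 difference of 2.92 ± 0.12 (limma, adjusted p = 3.38e-13), and it was higher than DS56 by 1.48 ± 0.12 (limma, adjusted p = 1.38e-08). DS56 was lower than the control by a difference of -1.18 ± 0.12 (limma, adjusted p = 7.70e-07), and 24 h G12-CBS was lower than DS56 by a difference of -1.44 ± 0.12 (limma, adjusted p = 1.89e-07). RPL11B (YGR085C) read 9.51, 9.13 and 9.08 in 72 h G12-CBS, 7.85, 7.65 and 7.86 in 24 h G12-CBS, 8.36, 8.54 and 8.25 in DS56, and 8.57, 9.00 and 9.29 in the control. Its group means had the same order, 72 h G12-CBS overlapped the control, and 24 h G12-CBS minus DS56 did not pass (-0.60 ± 0.16, limma, adjusted p = 0.11). There was a smaller difference of 1.45 ± 0.16 between 72 h and 24 h (limma, adjusted p = 1.46e-06). RPL5 (YPL131W) moved little beside them: 11.67 on all 3 arrays of 72 h G12-CBS, 11.44, 11.51 and 11.44 at 24 h, 11.90, 11.90 and 11.92 in DS56, and 11.58 on all 3 control arrays. DS56 exceeded the control by 0.32 ± 0.11 (limma, adjusted p = 0.0454), the opposite direction to RPL11A in that comparison. The RPL5 call was lost in 10 of 13 alternative fits, among them that of the 6 arrays alone (limma, adjusted p = 0.0812).

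RPL1 forms the mobile stalk beside the exit site of transfer RNA. RPL1B (YGL135W) read 6.02, 6.47 and 6.43 in 72 h G12-CBS, 7.73, 7.72 and 7.99 in 24 h G12-CBS, 7.81, 8.14 and 7.65 in DS56, and 6.34, 6.60 and 6.18 in the control. RPL1A (YPL220W) read 6.91, 6.64 and 7.14 in 72 h G12-CBS, 7.78, 7.77 and 7.85 at 24 h, 7.53, 8.16 and 7.44 in DS56, and 6.60, 7.02 and 6.93 in the control. Both rows were dim, with means over 12 arrays of 7.09 for RPL1B and 7.31 for RPL1A, so signal above background is not shown for them. In both rows the arrays of DS56 and of 24 h G12-CBS lay above all arrays of the other groups, which overlapped each other. DS56 exceeded the control by 1.49 ± 0.16 for RPL1B (limma, adjusted p = 1.46e-06) and by 0.86 ± 0.17 for RPL1A (limma, adjusted p = 0.00187). 72 h G12-CBS lay below its own 24 h level by differences of -1.50 ± 0.16 for RPL1B (limma, adjusted p = 6.03e-07) and -0.90 ± 0.17 for RPL1A (limma, adjusted p = 7.06e-04).

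RPP0, RPP1 and RPP2 make up the acidic stalk that recruits the GTPases of translation. RPP1B (YDL130W) read 6.42, 6.13 and 6.36 in 72 h G12-CBS, 7.17, 7.06 and 6.99 at 24 h, 7.33, 7.23 and 7.11 in DS56, and 6.14, 6.16 and 5.95 in the control. RPP1A (YDL081C) read 7.63, 7.41 and 7.88 in 72 h G12-CBS, 7.76, 7.92 and 7.73 at 24 h, 7.73, 7.65 and 7.78 in DS56, and 6.99, 7.23 and 7.17 in the control. Both rows were dim, with means over 12 arrays of 6.67 for RPP1B and 7.57 for RPP1A, so signal above background is not shown for them. Both were lowest in the control, but RPP1A stood alone there while RPP1B in 72 h G12-CBS overlapped it. DS56 exceeded the control by 1.14 ± 0.12 for RPP1B (limma, adjusted p = 1.94e-06) and by 0.59 ± 0.13 for RPP1A (limma, adjusted p = 0.00414). 72 h G12-CBS exceeded the control by 0.51 ± 0.13 for RPP1A (limma, adjusted p = 0.0186), against 0.22 ± 0.12 for RPP1B, which did not pass (limma, adjusted p = 0.31). That RPP1A call was lost in 4 of 13 alternative fits, the 6 arrays alone included (limma, adjusted p = 0.177). The row of RPP0 (YLR340W), the base of the stalk, was also dim. It was higher in DS56 than in the control by 0.44 ± 0.13 (limma, adjusted p = 0.0234), a call lost in 4 of 13 alternative fits. The RPP0 row read 7.00, 7.13 and 7.02 in DS56 and 6.43, 6.69 and 6.70 in the control. The rows of RPP2A and RPP2B passed no pairwise test.

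Near the catalytic centre, the rows of RPL3, RPL10, RPL2A and RPL28 were bright. RPL3 (YOR063W), whose extension reaches that centre, read 11.80, 11.85 and 12.06 in 72 h G12-CBS, 11.28, 11.16 and 11.08 at 24 h, 12.16, 12.27 and 12.23 in DS56, and 11.80, 11.85 and 11.80 in the control. DS56 stood above and 24 h G12-CBS below all other arrays, a difference of -1.05 ± 0.12 for the 24 h cells minus DS56 (limma, adjusted p = 2.11e-05). RPL10 (YLR075W), which is added last and is needed before the subunits can join, read 15.27 on all arrays of 72 h G12-CBS and at 24 h, 15.27, 15.04 and 15.27 in DS56, and 15.58 on all 3 control arrays. All arrays of the engineered strains lay below the control, which sat at the level next to the top value of 15.76. The comparison of DS56 with the control gave -0.38 ± 0.11 (limma, adjusted p = 0.0239), and did not pass with the 6 arrays alone (limma, adjusted p = 0.0567) or without DS56 replicate 2. RPL2A (YFR031C-A) and RPL28 (YGL103W), which also reach towards the centre, passed no test, and their group means stayed within 12.24 to 12.42 and 10.66 to 10.92.

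Several proteins bridge to the small subunit or face it, and their rows differed in pattern. RPL24 helps form an intersubunit bridge. RPL24A (YGL031C) averaged 7.72 ± 0.29 in 72 h G12-CBS, 8.48 ± 0.15 at 24 h, 8.71 ± 0.19 in DS56 and 8.10 ± 0.15 in the control (SD, n = 3 each). RPL24B (YGR148C) averaged 8.31 ± 0.56, 8.81 ± 0.09, 9.12 ± 0.01 and 8.34 ± 0.39 in those 4 groups. Both rows were highest in DS56, and 72 h G12-CBS lay below it by differences of -0.99 ± 0.15 for RPL24A (limma, adjusted p = 7.76e-05) and -0.81 ± 0.21 for RPL24B (limma, adjusted p = 0.00891). RPL23A (YBL087C), on the interface, read 13.69 on all 3 arrays of 72 h G12-CBS, 14.32, 14.24 and 14.32 at 24 h, 13.92, 14.24 and 14.24 in DS56, and 13.92 on all 3 control arrays. 72 h G12-CBS was the lowest group, by a difference of -0.61 ± 0.12 from 24 h (limma, adjusted p = 8.32e-04). RPL23B (YER117W) averaged 12.90 ± 0.12 in 72 h G12-CBS, 13.06 ± 0.03 at 24 h, 13.20 ± 0.09 in DS56 and 13.21 ± 0.04 in the control (SD, n = 3 each), and passed no test. RPL19A (YBR084C-A), a dim row of another bridge protein, was lower in 72 h G12-CBS than in all other groups. It differed from the control, its highest group on average, by -0.56 ± 0.14 (limma, adjusted p = 0.0118). That call was lost in 2 of 13 alternative fits, the 6 arrays alone included (limma, adjusted p = 0.155). The RPL19B row (YBL027W), also dim, differed from the control by 0.24 ± 0.15, the other direction, and did not pass (limma, adjusted p = 0.35).

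RPL40 is made as a fusion with ubiquitin, which is then cut off. RPL40A (YIL148W) read 13.58 on all 3 arrays of 72 h G12-CBS, 13.69, 13.83 and 13.58 at 24 h, 14.09, 14.09 and 13.83 in DS56, and 13.83 on all 3 control arrays. RPL40B (YKR094C) read 10.85, 11.08 and 11.08 in 72 h G12-CBS, 10.17, 10.29 and 10.29 at 24 h, 10.45, 10.63 and 10.60 in DS56, and 11.08, 11.01 and 11.08 in the control. RPL40A was highest on average in DS56, where RPL40B stood below the control and below 72 h G12-CBS. Against DS56, 72 h G12-CBS differed by -0.42 ± 0.12 for RPL40A (limma, adjusted p = 0.0144) and by 0.45 ± 0.12 for RPL40B (limma, adjusted p = 0.00990).

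RPL27A (YHR010W) was the row of the set that rose most in 72 h G12-CBS against DS56 and against the control. It read 10.60, 9.05 and 10.21 there, 7.64, 7.55 and 7.72 at 24 h, 7.59, 7.83 and 7.75 in DS56, and 7.39, 7.42 and 6.96 in the control. The 3 arrays of 72 h G12-CBS lay above all others, with the widest spread of any group in this row (SD 0.81). The rise was 6.49-fold over the control, a log2 difference of 2.70 ± 0.25 (limma, adjusted p = 2.57e-07), 4.69-fold over DS56 (limma, adjusted p = 1.55e-06) and 4.99-fold over 24 h (limma, adjusted p = 7.68e-07). The other groups averaged 7.26 to 7.72, in the dim range where signal above background is not shown, so these are ratios of signal and no measure of how low the transcript was there. RPL33A (YPL143W), a dim row, was likewise highest there, with 7.34, 7.07 and 7.22 in 72 h G12-CBS, 6.28, 6.21 and 6.41 at 24 h, 6.38, 6.24 and 6.30 in DS56, and 6.53, 6.81 and 6.11 in the control. It exceeded DS56 by 0.90 ± 0.15 (limma, adjusted p = 1.69e-04) and the control by 0.73 ± 0.15 (limma, adjusted p = 0.00396). The call against the control was lost in 1 of 13 alternative fits, that of the 6 arrays alone (limma, adjusted p = 0.133).

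RPL9, which lies near the site where translation factors bind, and RPL20 had both rows lower at 24 h. RPL9A (YGL147C) read 10.76, 11.01 and 10.55 in 72 h G12-CBS, 9.47, 9.64 and 9.59 at 24 h, 9.94, 9.92 and 9.92 in DS56, and 10.79, 10.68 and 10.96 in the control. RPL9B (YNL067W) read 12.47, 12.47 and 12.55 in 72 h G12-CBS, 11.85, 11.99 and 11.90 at 24 h, 12.23, 12.16 and 12.16 in DS56, and 12.73, 12.80 and 12.80 in the control. In both rows DS56 stood between the 24 h cells and the other groups, and it was lower than the control by differences of -0.89 ± 0.13 for RPL9A (limma, adjusted p = 7.78e-05) and -0.60 ± 0.11 for RPL9B (limma, adjusted p = 9.24e-04). RPL20A (YMR242C) read 9.82, 9.97 and 10.40 in 72 h G12-CBS, 9.24, 9.14 and 9.27 at 24 h, 10.03, 10.00 and 10.00 in DS56, and 9.82, 10.23 and 10.29 in the control. RPL20B (YOR312C) read 9.19, 9.19 and 9.27 in 72 h G12-CBS, 8.14, 8.23 and 8.30 at 24 h, 8.70, 8.98 and 8.74 in DS56, and 9.14, 9.10 and 9.24 in the control. The 24 h arrays lay below all others in both RPL20 rows, by 0.85 ± 0.15 under 72 h for RPL20A (limma, adjusted p = 3.33e-04) and 0.99 ± 0.12 for RPL20B (limma, adjusted p = 3.18e-06).

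**Figure D2:**
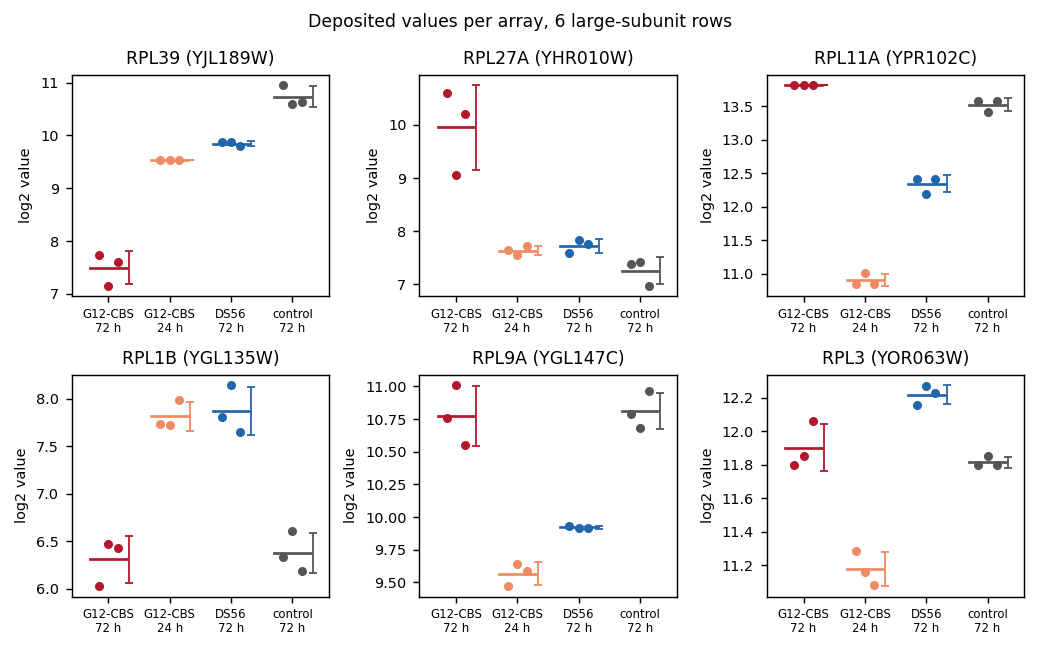
Log2 values of RPL39, RPL27A, RPL11A, RPL1B, RPL9A and RPL3, 1 point per array with the group mean (line) and 1 SD either side (bar, n = 3), with the groups from left to right as 72 h G12-CBS, 24 h G12-CBS, DS56 and control. RPL39 is lowest and RPL27A highest in 72 h G12-CBS, while RPL11A is lowest in 24 h G12-CBS; each panel has its own axis, and levels are not compared between rows.

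DS56 against the empty-vector control sets the recombinant gene against its absence at 72 h. Of the 63 rows, 29 (46.0%) passed, 17 higher and 12 lower in DS56, where 18.1% of all rows passed, 12.1% higher and 6.07% lower. The median row differed by 0.0002 on the log2 scale, against 0.0354 over all rows. Of the 28 bright rows 4 were higher and 11 lower (14.3% and 39.3%), against 26.9% and 28.1% of all bright rows. Of the 35 dim rows 13 were higher and 1 lower (37.1% and 2.86%), against 245 higher and 100 lower of all 2230 dim rows, so the dim rows of the whole table also leaned to higher. The largest rises were in RPL1B, RPP1B, RPL37B, RPL1A and RPL31B, and the largest falls in RPL11A, RPL9A, RPL39, RPL36B and RPL9B. RPL37B (YDR500C), a dim row, read 7.44, 7.59 and 7.53 in DS56 and 6.33, 6.52 and 6.44 in the control, a rise of 1.09 ± 0.12 (limma, adjusted p = 1.61e-06). RPL36B (YPL249C-A) read 9.27, 9.29 and 8.98 in DS56 and 10.45, 9.13 and 9.97 in the control. The groups overlapped, and its difference of -0.67 ± 0.23 (limma, adjusted p = 0.0471) was lost in 9 alternative fits. The count depended on single arrays and on the shared model. It was 15, 13 and 16 without DS56 replicate 1, 2 and 3, and 18 when the 6 arrays of these groups were fitted alone. Calls were also lost without a control array, among them RPL37A without control replicate 1, 2 or 3.

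72 h G12-CBS against DS56 sets the promoter change at CYS4 against DS56 without it, at the same time and feed. Here 25 rows (39.7%) passed, 10 higher and 15 lower in G12-CBS, where 22.4% of all rows passed, 8.33% higher and 14.1% lower. The median row differed by -0.11 on the log2 scale, against -0.04 over all rows. Of the bright rows 8 were higher and 5 lower (28.6% and 17.9%), against 24.4% and 28.7% of all bright rows. Of the dim rows 2 were higher and 10 lower (5.71% and 28.6%), against 7.17% and 13.0% of all dim rows, which leaned to lower as well. RPL27A, RPL11A, RPL33A, RPL9A and RPL11B rose most, and RPL39, RPL1B, RPL31B, RPL24A and RPL37B fell most. The lower signal of RPL39 was 5.10-fold.

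72 h G12-CBS against the control compares both changes together with neither. In total 8 rows (12.7%) passed, 4 higher and 4 lower in G12-CBS, where 9.21% of all rows passed, 5.02% higher and 4.18% lower, a share near that of the whole table. Of the bright rows 1 was higher and 2 lower (3.57% and 7.14%), against 10.6% and 16.9% of all bright rows. Of the dim rows 3 were higher and 2 lower (8.57% and 5.71%), against 4.62% and 3.27% of all dim rows. RPL27A, RPL33A, RPL14B and RPP1A were higher, and RPL39, RPL19A, RPL36A and RPL37A were lower. RPL14B (YHL001W) differed by 0.59 ± 0.13 (limma, adjusted p = 0.00841) and RPL36A (YMR194W) by -0.48 ± 0.12 (limma, adjusted p = 0.0170). Both of these rows were dim. RPL37A (YLR185W) read 11.08, 10.96 and 11.16 in G12-CBS and 11.51, 11.44 and 11.51 in the control, a difference of -0.42 ± 0.11 (limma, adjusted p = 0.0248). With the 6 arrays of these groups fitted alone, RPL27A and RPL39 were the 2 rows that passed. This comparison shares its arrays with the preceding pair, so the 3 are not independent.

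72 h G12-CBS against 24 h compares the same strain later and earlier on methanol, and the L-methionine feed at 24 h lies between the samples, so time and feed cannot be told apart. In this comparison 30 rows (47.6%) passed, 14 higher and 16 lower at 72 h, where 22.8% of all rows passed, 8.24% higher and 14.6% lower. The median row differed by -0.07, against -0.05 over all rows. Of the bright rows 10 were higher and 3 lower (35.7% and 10.7%), against 28.1% and 30.0% of all bright rows. Of the dim rows 4 were higher and 13 lower (11.4% and 37.1%), against 6.82% and 13.5% of all dim rows, which also leaned to lower. RPL11A, RPL27A, RPL11B, RPL9A and RPL20B rose most, and RPL39, RPL1B, RPL31B, RPL21A and RPL1A fell most. RPL21A (YBR191W), a dim row, averaged 6.44 ± 0.39 at 72 h and 7.39 ± 0.13 at 24 h (SD, n = 3 each), a difference of -0.96 ± 0.18 (limma, adjusted p = 8.20e-04).

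24 h G12-CBS and DS56 at 72 h differ in strain, time and feed at once. Of the 5 comparisons, this had the fewest rows past the test in the shared model. With the 6 arrays compared fitted alone, 2.76% of all rows passed here and 2.13% in 72 h G12-CBS against control. In the shared model 4 rows (6.35%) passed, each lower in 24 h G12-CBS, where 0.962% of all rows passed, 0.544% higher and 0.418% lower. These were RPL11A, RPL3, RPL20A (-0.79 ± 0.15, limma, adjusted p = 0.00602) and RPL20B (-0.58 ± 0.12, limma, adjusted p = 0.0118), all bright rows, and 14.4% of all bright rows passed against 14.3% of the bright large-subunit rows. At an unadjusted p under 0.05 there were 15 of the 63 rows, against 138 of all 2390. Split by brightness these were 13 of the 28 bright rows, against 56 of all 160, and 2 of the 35 dim rows, against 82 of all 2230. The count was 11 with the 6 arrays alone, 2 without DS56 replicate 2 and 2 without G12-CBS 24 h replicate 2; the 2 lost were RPL20A and RPL20B.

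**Figure D3:**
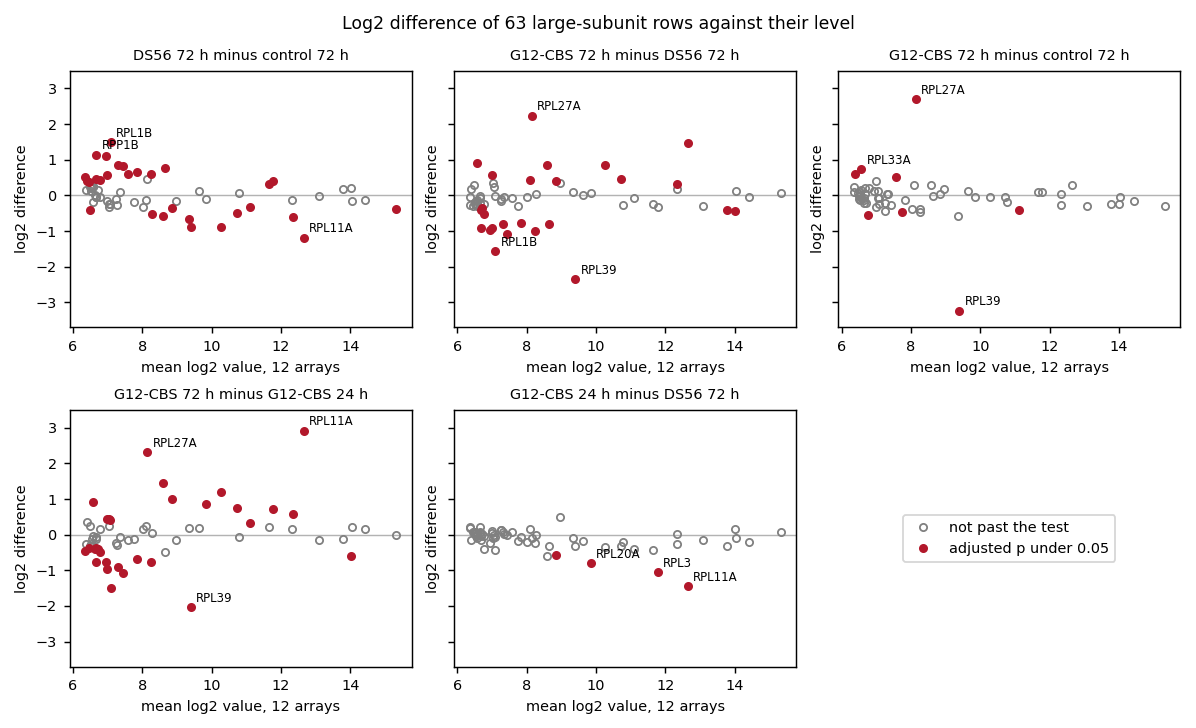
Log2 difference of each of the 63 rows (vertical axis) against its mean log2 value over 12 arrays (horizontal axis), 1 panel per comparison, filled points past an adjusted p of 0.05. In DS56 minus control the dim rows past the test lie almost all above 0 (13 higher, 1 lower) and the bright ones mostly below it (4 higher, 11 lower).

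For 24 families both rows named for S. cerevisiae paralogs were in the table. Whether separate genes of K. phaffii stand behind the rows of a pair is not known from the sources used here. The responses of the rows were set side by side as the change of the A row minus the change of the B row, taken within each array. These are 120 unadjusted 95% intervals, 24 pairs in 5 comparisons, and they describe the rows rather than test the pairs. In DS56 against control both rows passed in the same direction in 5 pairs and in opposite directions in 1, 1 row passed in 10 pairs and neither in 8, and the interval left out 0 in 10 pairs. In 72 h G12-CBS against 24 h the counts were 7, 1, 8 and 8, with 10 intervals without 0.

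The pair with opposite calls in both of these comparisons was RPL37. The RPL37A calls lay near the threshold (limma, adjusted p = 0.0469 and 0.0453), and with 6 arrays alone neither passed (limma, adjusted p = 0.0778 and 0.0547). In DS56 against control RPL37A differed by -0.33 and RPL37B by 1.09, a difference of -1.42 ± 0.10 (95% interval -1.65 to -1.20). In 72 h G12-CBS against 24 h RPL37A differed by 0.32 and RPL37B by -0.76, a difference of 1.08 (0.86 to 1.31). RPL40 was the pair with opposite calls in 72 h G12-CBS against DS56, where A minus B was -0.87 ± 0.12 (-1.14 to -0.60), and both calls were lost without DS56 replicate 1. The RPL11 rows moved in 1 direction but by unequal amounts, 1.47 ± 0.23 more in RPL11A between 72 h and 24 h (0.94 to 2.01). In the RPL1 pair the B row moved more, with A minus B at -0.63 ± 0.20 in DS56 against control (-1.09 to -0.18). In the RPL20, RPL7, RPL19 and RPL21 pairs both rows passed between 72 h and 24 h with intervals that hold 0: -0.51 to 0.23 for RPL20, -0.51 to 0.54 for RPL7, -0.52 to 0.48 for RPL19 and -1.17 to 0.04 for RPL21. Of these rows, RPL7B did not pass with the 6 arrays alone (limma, adjusted p = 0.0815). The RPL19 interval left out 0 in DS56 against control (-1.06 to -0.06) and in 72 h G12-CBS against control (-1.31 to -0.31). Bright and dim rows of a pair differ in how far a signal can show a change, and that part was not tested.

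**Figure D4:**
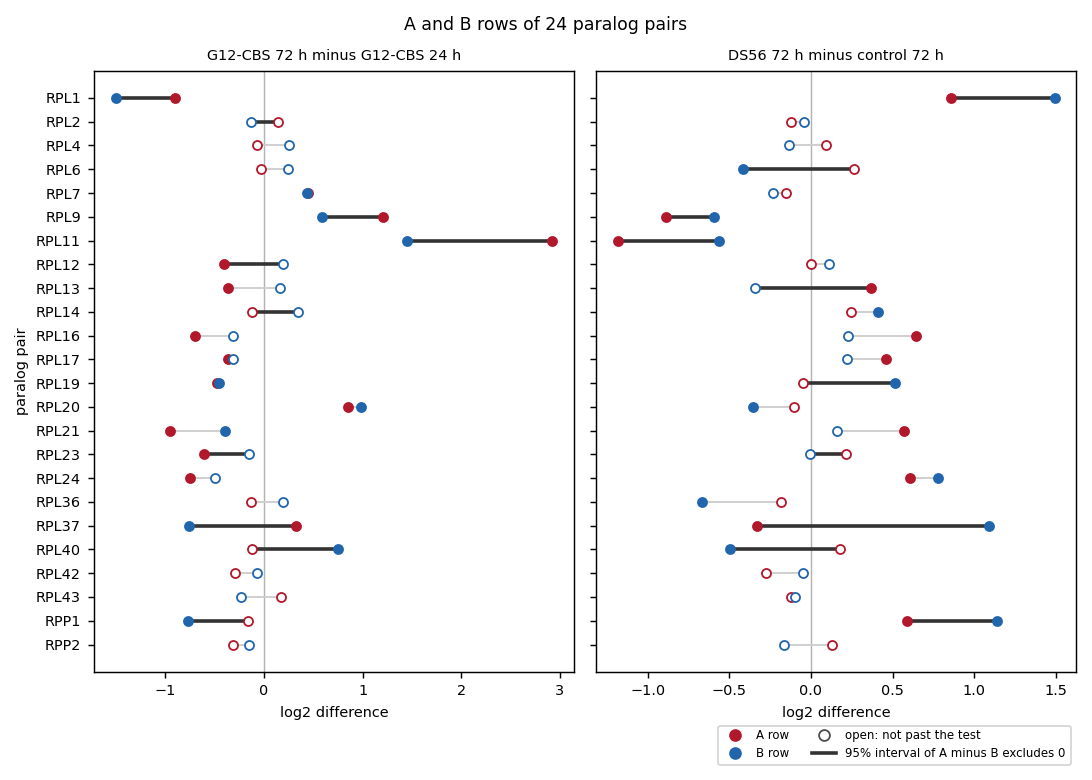
For each of 24 paralog pairs, the log2 difference of the A row (red) and the B row (blue) in 72 h G12-CBS minus 24 h (left) and in DS56 minus control (right); filled points passed the test and dark bars mark a 95% interval of A minus B without 0. RPL37 spans 0 in both panels, and the RPL11 rows lie far apart on the same side.

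Of the small subunit, 44 of 56 identifiers had a row, and 43.2% passed in DS56 against control (14 higher, 5 lower), 43.2% in 72 h G12-CBS against DS56 (3 higher, 16 lower), 15.9% in 72 h G12-CBS against control (2 higher, 5 lower), 52.3% in 72 h G12-CBS against 24 h (12 higher, 11 lower) and 11.4% in 24 h G12-CBS against DS56 (0 higher, 5 lower). Of its 24 bright rows 54.2% passed in DS56 against control, where 55.0% of all bright rows did. In 72 h G12-CBS these shares were 54.2% and 53.1% against DS56, and 16.7% and 27.5% against control. Between 72 h and 24 h 18 of the 24 passed, against 58.1%, and between 24 h and DS56 20.8%, against 14.4%. In DS56 against control its bright rows had 9 higher and 4 lower (37.5% and 16.7%), where the bright large-subunit rows had 4 and 11. Of all bright rows 26.9% were higher and 28.1% lower. The small subunit's median difference was 0.29, against 0.0002 for the large subunit and 0.0354 for all rows. Of the 20 dim small-subunit rows 6, 6, 3 and 5 passed in the first 4 of these comparisons. Of all dim rows 15.5%, 20.2%, 7.89% and 20.3% did. In 24 h G12-CBS against DS56 no dim row passed. The difference between the subunits was not tested. RPS21A (YKR057W) averaged 9.34 ± 0.11 in DS56 and 7.60 ± 0.52 in the control (SD, n = 3 each), the largest rise of that comparison in the set. RPS27B (YHR021C) averaged 8.67 ± 0.45 in 72 h G12-CBS and 10.87 ± 0.09 in DS56, the largest fall of that comparison in the set. RPS20 (YHL015W) averaged 12.70 in 24 h G12-CBS and 13.65 in DS56, and fell by 0.95. The factors that assemble the large subunit had 32 of 73 identifiers in the table, all dim rows. Of these 32 rows, 8 passed in DS56 against control (4 higher, 4 lower), where 15.5% of all dim rows passed, and 8 in 72 h G12-CBS against 24 h (3 higher, 5 lower), where 20.3% did. None passed in 72 h G12-CBS against control, where 7.89% of all dim rows did. There 7 of the 32 had an unadjusted p under 0.05, against 460 of all 2230 dim rows. A total of 7 passed in 72 h G12-CBS against DS56 (2 higher, 5 lower), where 20.2% of all dim rows did. RLP24 (YLR009W), which holds the place of RPL24 in the immature subunit, averaged 7.67 ± 0.14 in DS56 and 6.46 ± 0.19 in the control, a rise of 1.21 ± 0.13, in the direction of both RPL24 rows. Of 6 regulators of ribosomal protein genes, IFH1 and FHL1 had rows and neither passed in any comparison.

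**Figure D5:**
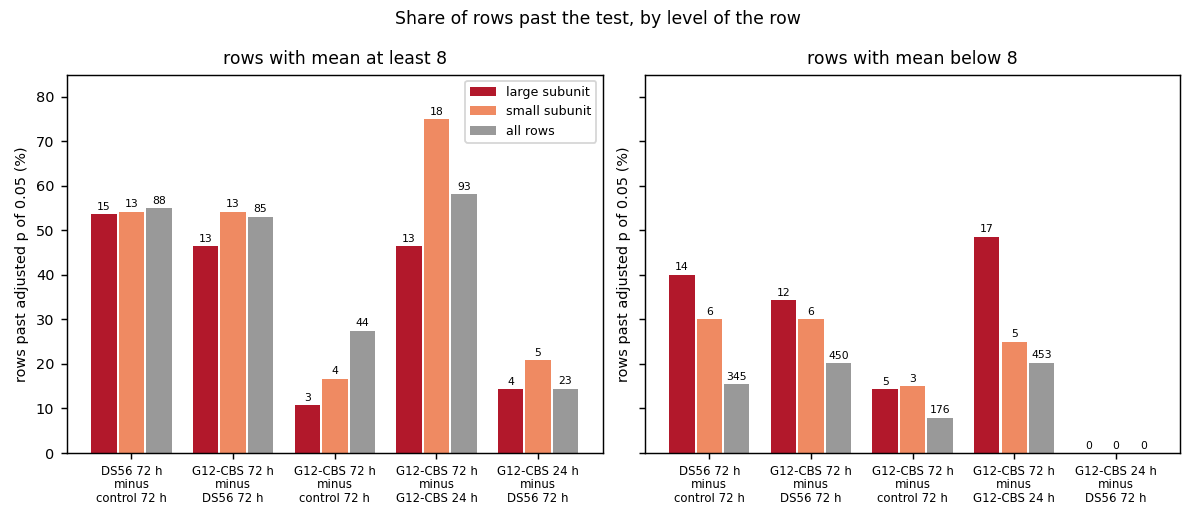
Percent of rows past an adjusted p of 0.05 in each comparison (number of rows above each bar) for rows with a mean of at least 8 (left) and below 8 (right), with the large subunit in red, the small subunit in orange and all rows in grey. In DS56 minus control the bright large-subunit rows reach 53.6% and all bright rows 55.0%, and the dim ones 40.0% and 15.5%.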

How the data were processed

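RNA of 12 cultures was labelled with Cy3 and hybridised to 1-colour arrays. The authors deposited 1 table of values per row and array; RMA is named per the submitters' processing notes, and the log2 intensity scale of the deposited values was read from their range. The version and background correction were not stated. The sources used here give no slide, scan time or probe design. Array number limits the precision. Members were matched by systematic name, and the members and gene lists were chosen with earlier results of these data known. All 2390 rows were fitted in 1 limma model of 4 groups (limma 3.58.1 in R 4.3.3; lmFit, eBayes, 8 residual degrees of freedom, two-sided), with p-values adjusted by Benjamini-Hochberg over all rows at a threshold of 0.05. Figures were drawn with matplotlib 3.10.9. The code was tested on simulated data. Rows named in the text are the 5 largest rises and 5 largest falls among members past the threshold in each comparison, and rows of several paralog pairs. Of the largest rises and falls of the other lists only RPS21A, RPS27B, RPS20 and RLP24 are named, and further ones past the threshold are not. RPL5, RPL10, RPL25, RPL28 and RPP0 were added for their roles after the values were seen. Alternatives were quantile normalisation, median centring, leaving out the dimmest 25% of rows, array weights, a variance trend with robust moderation, a fit of the 6 arrays compared, a replicate block and leaving out each array. Replicate numbers were not taken to pair arrays: 18 pairs of same-numbered arrays had correlations of their deviations from -0.123 to 0.179, with 2 over 0.1.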

Additional observations from a re-analysis of the deposited data

How the results depend on the processing

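Across 545 alternative fits of the 42 named member results, 516 kept the direction and the call, 29 kept the direction and lost the call, and 0 reversed. The losses were in RPL36B (9 fits, DS56 against control), in RPL33A, RPL14B, RPP1A, RPL19A, RPL36A and RPL37A (72 h G12-CBS against control) and in RPL20A and RPL20B (24 h G12-CBS against DS56). Over all 96 member calls, 49 held in every alternative fit and 22 were lost with the 6 arrays compared alone, among them RPL5, RPL10 and RPL37A (DS56 against control), RPL4B (72 h G12-CBS against DS56) and RPL7B and RPL37A (72 h G12-CBS against 24 h). Of 113 recounts of member calls, 103 stayed within 1.5 times the reported count. The exceptions were as follows. With the 6 arrays compared fitted alone, the counts were 18 for DS56 against control (12.6% of all rows), 2 for 72 h G12-CBS against control (2.13%) and 11 for 24 h G12-CBS against DS56 (2.76%). With array weights they were 4 for 72 h G12-CBS against control and 11 for 24 h G12-CBS against DS56. Leaving out 1 array gave 13 to 29 calls for DS56 against control and 2 to 6 for 24 h G12-CBS against DS56, and these ranges hold the other exceptions. The other ranges without 1 array stayed within 1.5 times the reported count. They were 17 to 25 for 72 h G12-CBS against DS56 and 6 to 11 for 72 h G12-CBS against control. For 72 h against 24 h the range was 21 to 30, and for the F test 30 to 38. The cause of the exceptions was not tested. The replicate block gave 25, 24, 9, 27 and 4 calls for DS56 against control, 72 h G12-CBS against DS56, 72 h G12-CBS against control, 72 h against 24 h and 24 h against DS56, and 34 for the F test. Median centring gave 13 higher and 12 lower rows for DS56 against control, and quantile normalisation 15 and 12. Few arrays, shared levels in bright rows and signal near background in dim rows limit what can be seen.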
